A study of Mus musculus with 8 samples.

Results

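The B lineage transcription factors examined were Pax5, Ebf1, Ikzf1, Ikzf3, Foxo1, Pou2af1, Pou2f2, Spib, Bach2 and Ets1. These 10 genes were taken as a set for their known place in B cell development. The set and the gene lists below were chosen with earlier results of these data known. Counts set beside those of all genes are therefore not an independent test. Every array probe whose platform symbol was one of the 10 names was used. Of the 10 genes, 8 had a probe, which gave 11 probes of the 25697 on the array, and 7 genes were bright enough to be tested among 7947 genes in all. Ikzf3 and Bach2 had no probe under these names and were not analysed here. The cells were λ820, a single mouse lymphoma line driven by Myc. Cells were harvested after 24 h with 10 µM RVX2135 and 10 µM VE-821 together (2 arrays), with 10 µM RVX2135 (2 arrays), with 10 µM VE-821 (2 arrays), or with the solvent DMSO at a dilution of 1:1000 (2 arrays). RVX2135 is an inhibitor of the BET bromodomain proteins, which read acetylated histones at active genes, and VE-821 inhibits ATR, the kinase that responds to stalled DNA replication. All groups grew in RPMI medium with fetal bovine serum. The labels do not tell whether the 2 replicates of a group were separate cultures, so each p-value speaks for the spread between these RNA samples, part or all of which may be technical.

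B cell identity is set by a small network of DNA-binding proteins. Foxo1, Ebf1 and Pax5 act in sequence to open and maintain the B cell programme, and Ikaros (Ikzf1) and its relative Aiolos (Ikzf3) are zinc finger proteins that control lymphoid enhancers. Oct-2 (Pou2f2) binds the octamer element of immunoglobulin promoters, where OBF-1 (Pou2af1) serves as its B cell coactivator. Spi-B and Ets1 belong to the ETS family, whose members recognise a GGAA core, and Bach2 holds back plasma cell differentiation.

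With both drugs, 6 of the 7 tested factors fell relative to DMSO and Foxo1 rose. Ikzf1 was 10.2-fold lower, Pou2af1 6.88-fold, Spib 4.48-fold, Ets1 3.55-fold by its brightest probe, Ebf1 3.27-fold and Pou2f2 at least 2.60-fold. The sizes for dimmer probes depend on the offset added before log2: between an offset of 50 and one of 1, the log2 difference ran from -2.59 to -3.94 for Ikzf1, from -1.47 to -2.82 for Spib and from -1.14 to -2.26 for Ebf1, and all stayed called. Across all tested genes, 30.8% were called lower and 28.9% higher in this comparison. A call at least 2-fold lower was reached by 6 of the 7 factors, against 8.2% of all genes, and the median difference of the factors was -1.83 on the log2 scale, against -0.01 over all genes. With RVX2135 alone, 4 of 7 fell, 1 rose and 2 were not called, where 15.4% of all genes were called lower and 15% higher. With VE-821 alone, 6 of 7 fell and Foxo1 was not called, where 11.7% of all genes were called lower and 12.1% higher. The median differences of the factors were -0.83 with RVX2135 and -0.79 with VE-821, against 0.00 and -0.02 over all genes. Quantile normalization draws the all-gene medians toward 0 and evens the shares called lower and higher. With median scaling the all-gene median with both drugs was -0.17, and 67.5% of called genes were lower. That scaling used the median of all 25697 probes, of which 42.9% to 44.7% were detected on an array. It therefore aligned the arrays at a level below detection, and whether these values reflect a general fall was not tested. All calls rest on limma's moderated test with Benjamini-Hochberg adjustment over all 7947 genes at 0.05, and the 3 comparisons share the same DMSO arrays.

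**Figure D1:**
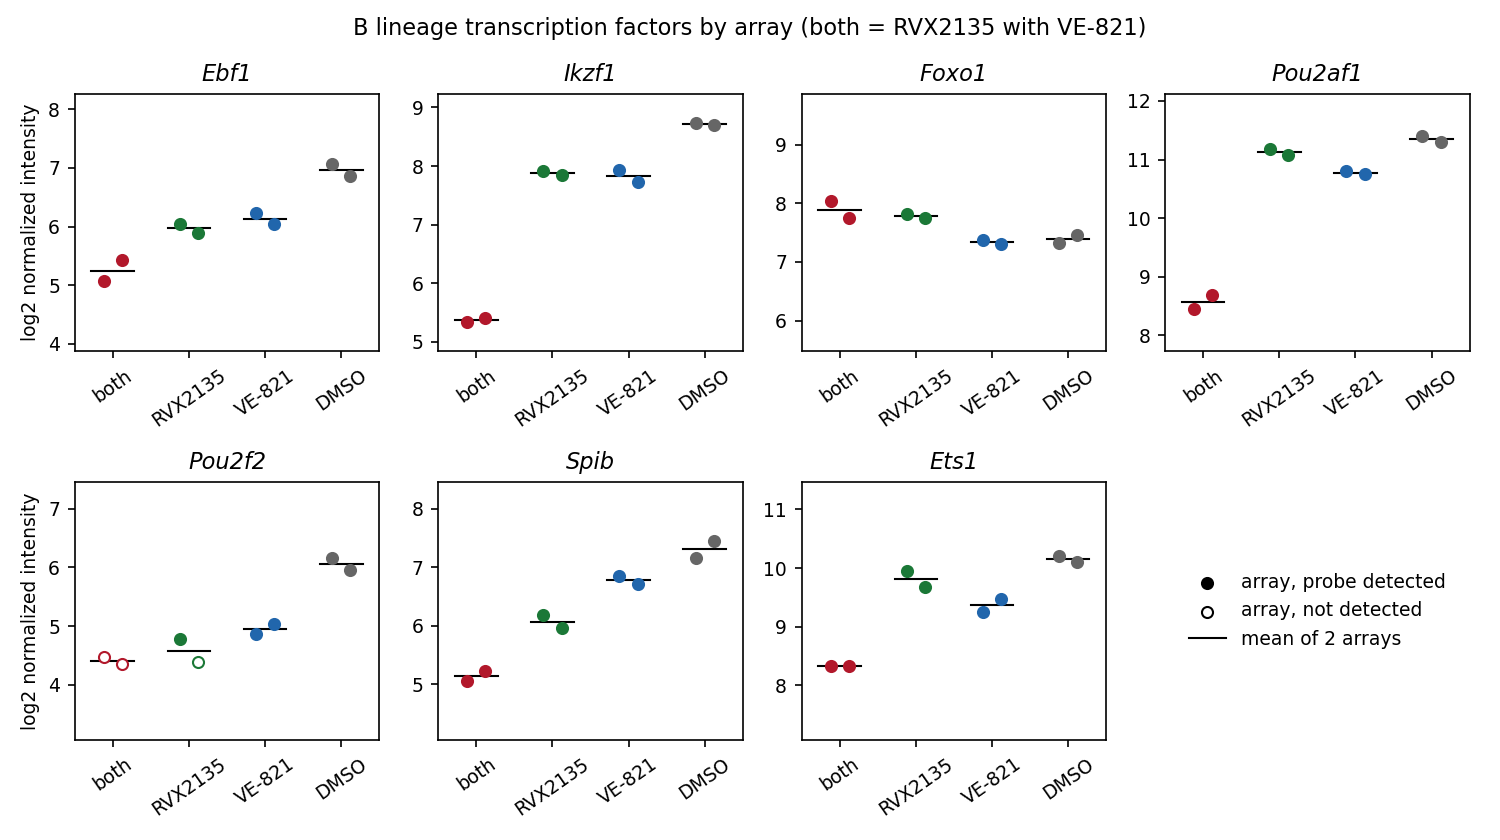
Level of each tested factor on each of the 8 arrays, as log2 normalized intensity of its tested probe, with open circles where the probe was not detected and a line at the mean of 2 arrays. Every factor except Foxo1 has its lowest mean with both drugs, and Pou2f2 is not detected on either array of that group; each panel spans the same height on the log2 scale but starts at its own level.

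Ikzf1 encodes Ikaros. Its tested probe measured 5.34 and 5.40 on the log2 scale with both drugs, 7.93 and 7.85 with RVX2135, 7.94 and 7.73 with VE-821, and 8.74 and 8.70 with DMSO. Both combination arrays lay far below all others, the arrays of the 2 single treatments overlapped each other, and both DMSO arrays were the highest. The combination was lower than DMSO by a log2 difference of -3.35 (SE 0.11, limma adjusted p = 1.13e-09), which ranked 14 from the lowest of 7947 genes. RVX2135 and VE-821 alone gave differences from DMSO of -0.83 and -0.88 (adjusted p = 0.000201 and 0.000141). The combination also lay below RVX2135 by -2.52 and below VE-821 by -2.46 (adjusted p = 3.09e-08 and 2.65e-08). In the deposited intensities before normalization, the combination mean of 22.1 was 4.88% of the DMSO mean of 453, and the RVX2135 and VE-821 means were 47.3% and 48.8% of it. A second Ikzf1 probe was detected on both DMSO arrays and on neither combination array. No other group had this probe on both arrays, so it was kept for testing only through DMSO, where it was highest. It was called lower with both drugs (at least 1.21-fold, limma adjusted p = 0.00384 over all kept probes) and was not called in the other 6 comparisons. Its call below DMSO is therefore not an independent test of the fall of Ikzf1.

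Ebf1 encodes the early B cell factor that commits progenitors to the lineage. Its probe measured 5.07 and 5.43 with both drugs, 6.05 and 5.89 with RVX2135, 6.23 and 6.04 with VE-821, and 7.07 and 6.86 with DMSO. The combination arrays were the lowest, those of the single treatments overlapped, and DMSO stood above all. The differences from DMSO were -1.71 (SE 0.14, limma adjusted p = 1.14e-06) with both drugs, -0.99 (adjusted p = 0.000366) with RVX2135 and -0.83 (adjusted p = 0.00145) with VE-821. The combination was lower than RVX2135 by a difference of -0.72 (adjusted p = 0.00119) and lower than VE-821 by -0.89 (adjusted p = 0.000300).

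Pax5, which maintains commitment to the B lineage, had 1 probe, and it was not detected on any of the 8 arrays. Its log2 values were 4.24 and 4.50 with both drugs, 4.63 and 4.39 with RVX2135, 4.35 and 4.26 with VE-821, and 4.41 and 4.39 with DMSO. The VE-821 arrays lay slightly below the RVX2135 and DMSO arrays and the other groups overlapped, but a probe below background in every group allows no comparison.

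Foxo1 is a forkhead factor that is kept out of the nucleus by AKT signalling and that acts upstream of Ebf1 in early B cells. Its probe measured 8.04 and 7.74 with both drugs, 7.81 and 7.75 with RVX2135, 7.37 and 7.31 with VE-821, and 7.32 and 7.47 with DMSO. The combination and RVX2135 arrays were above all VE-821 and DMSO arrays, and within each of these 2 pairs of groups the arrays overlapped. Foxo1 was higher than in DMSO by 0.50 with both drugs (SE 0.12, limma adjusted p = 0.00348) and by 0.39 with RVX2135 (adjusted p = 0.0293). With VE-821 the difference was -0.06 (95% interval -0.32 to 0.20, adjusted p = 0.778). Both rises over DMSO lost their call when arrays were scaled to a common median of all probes in place of quantile normalization (0.26, adjusted p = 0.133 with both drugs, and 0.28, adjusted p = 0.174 with RVX2135). The rise with RVX2135 also lost it when any 1 of the 4 RVX2135 and DMSO arrays was left out (adjusted p = 0.0515 to 0.184).

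Pou2af1 encodes OBF-1, the coactivator of the octamer-binding factors. Its probe measured 8.44 and 8.70 with both drugs, 11.19 and 11.09 with RVX2135, 10.80 and 10.75 with VE-821, and 11.41 and 11.29 with DMSO. The 4 groups did not overlap, the combination lay far below the others, and RVX2135 was next to DMSO. The combination differed from DMSO by -2.78 (SE 0.11, limma adjusted p = 5.26e-09), from RVX2135 by -2.57 and from VE-821 by -2.21 (adjusted p = 4.13e-08 and 7.48e-08). Against RVX2135 this was rank 9 from the lowest of all genes. VE-821 alone was lower than DMSO by -0.58 (adjusted p = 0.00401), while RVX2135 alone differed by -0.22 (95% interval -0.47 to 0.03, adjusted p = 0.178).

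Pou2f2 encodes Oct-2, the partner of OBF-1. Its probe measured 4.47 and 4.35 with both drugs, 4.78 and 4.38 with RVX2135, 4.86 and 5.03 with VE-821, and 6.16 and 5.96 with DMSO. It was detected on both DMSO and both VE-821 arrays, on 1 of the 2 RVX2135 arrays and on neither combination array. The drop below DMSO was at least 2.60-fold with both drugs (limma adjusted p = 1.56e-06), and the fitted differences were -1.48 with RVX2135 (adjusted p = 2.50e-05) and -1.12 with VE-821 (adjusted p = 0.000187). The sizes with a single drug depend on the processing. Over the alternative settings they ranged from -2.607 to -0.7975 with RVX2135 and from -1.715 to -0.6371 with VE-821. The combination was at least 1.20-fold lower than VE-821 (adjusted p = 0.00776), a call lost without VE-821 replicate 2 (adjusted p = 0.0593), and it was not called against RVX2135 (-0.17, adjusted p = 0.343).

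Spib encodes Spi-B, an ETS factor close to PU.1 that supports B cell receptor signalling genes. Its probe measured 5.05 and 5.23 with both drugs, 6.18 and 5.96 with RVX2135, 6.85 and 6.72 with VE-821, and 7.16 and 7.45 with DMSO. The 4 groups were separate and in that order from low to high. The differences from DMSO were -2.16 (SE 0.13, limma adjusted p = 1.01e-07) with both drugs, -1.24 (adjusted p = 5.12e-05) with RVX2135 and -0.52 (adjusted p = 0.0146) with VE-821. The call with VE-821 was lost without VE-821 replicate 2 or DMSO replicate 2 (adjusted p = 0.106 and 0.127). RVX2135 was lower than VE-821 by a difference of -0.72 (adjusted p = 0.00201).

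Ets1, an ETS factor of lymphocytes that restrains plasma cell differentiation, had 3 probes, and the 2 that were tested differed in their calls. The brightest probe measured 8.33 and 8.33 with both drugs, 9.95 and 9.68 with RVX2135, 9.26 and 9.48 with VE-821, and 10.21 and 10.10 with DMSO. These 4 groups did not overlap, with the combination lowest and DMSO highest. This probe gave differences from DMSO of -1.83 (SE 0.12, limma adjusted p = 2.31e-07) with both drugs and -0.79 (adjusted p = 0.000830) with VE-821. RVX2135 alone differed by -0.34 (95% interval -0.61 to -0.07) and missed the threshold at an adjusted p of 0.0547. A second probe was dim, with group mean intensities of 16.4 to 25.3, where the offset of 16 shrinks differences. That second probe, detected on all 8 arrays, was not called in any comparison, and its smallest unadjusted limma p was 0.0447, for VE-821 against DMSO. It measured 5.09 and 5.17 with both drugs and 5.10 and 5.47 with DMSO, and its difference between these groups was -0.15 (95% interval -0.45 to 0.14, limma adjusted p = 0.345 over all kept probes). The third probe was not detected on both arrays of any group. The platform annotation assigns the brightest probe and the other Ets1 probes to different Ets1 transcripts, and the statement that Ets1 fell therefore applies to the brightest probe alone.

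**Figure D2:**
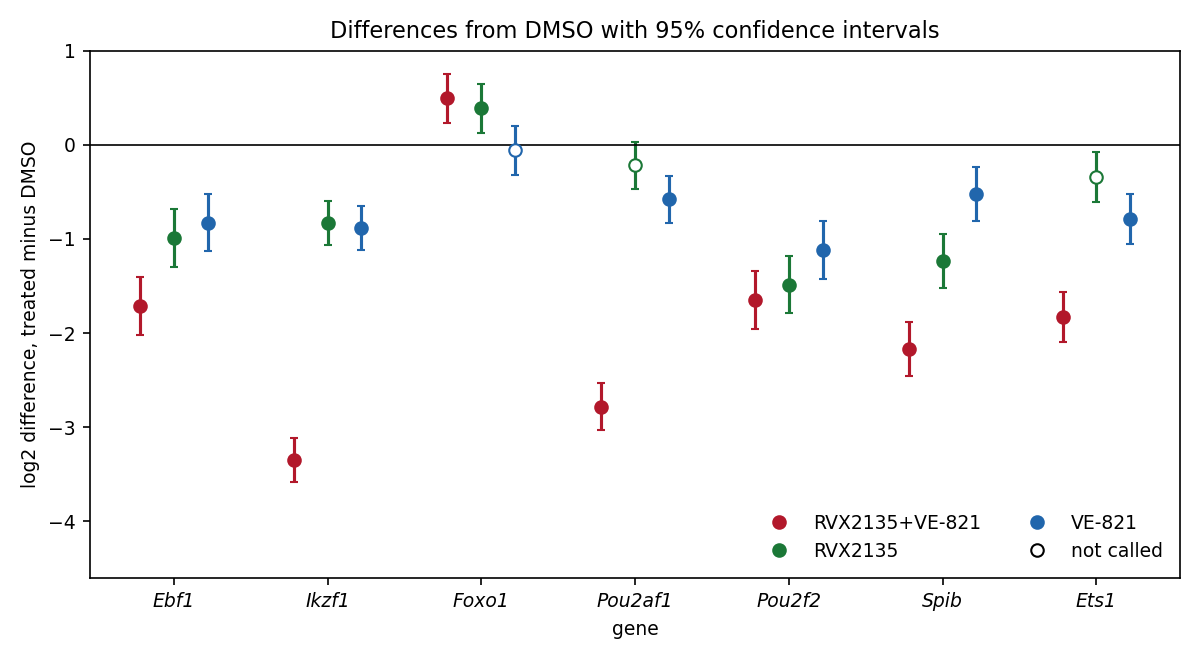
Log2 difference of each tested factor from DMSO with both drugs, RVX2135 or VE-821, with 95% confidence intervals from the limma fit and open circles for differences not called. The combination is furthest below 0 for all factors but Foxo1, which lies above 0 with both drugs and with RVX2135; the Pou2f2 value with both drugs is a fitted value for a probe below background.

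Set against the single treatments, the combination was lower than RVX2135 for 5 of 7 factors, with Foxo1 and Pou2f2 not called, where 26.4% of all genes were called lower. It was lower than VE-821 for 6 of 7, where 25.8% of all genes were called lower and 24.9% higher, and Foxo1 was higher by 0.55 (limma adjusted p = 0.00241). The median differences were -0.93 against RVX2135 and -1.04 against VE-821. Between the single treatments, RVX2135 was lower than VE-821 for Spib, and higher for Foxo1 (0.44), Ets1 (0.45) and Pou2af1 (0.36), where 13.3% of all genes were called lower and 13.2% higher. The last 3 calls had adjusted p-values of 0.0180, 0.0199 and 0.0373. Those of Foxo1 and Pou2af1 were lost when any 1 of the 4 arrays of these groups was left out, and that of Ets1 without RVX2135 replicate 1 or VE-821 replicate 1. The count of 4 called factors became 1 without VE-821 replicate 1 and 2 without any other of these 4 arrays.

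The interaction asks whether the combination differed from the sum of the single log2 differences. It was called lower than the sum for 3 of 7 factors, where 15.5% of all genes were called lower and 13.1% higher. A further call, of Pou2f2, rests on a level below background and is not counted. For Pou2af1 the combination stood at -2.78 against a sum of -0.79, an interaction of -1.99 (SE 0.16, limma adjusted p = 2.06e-05) that ranked 17 from the lowest of all genes. For Ikzf1 it stood at -3.35 against a sum of -1.71 (interaction -1.64, SE 0.15, adjusted p = 3.98e-05), and for the brightest Ets1 probe at -1.83 against -1.13 (interaction -0.70, adjusted p = 0.0120). These 3 factors fell further with both drugs than the sum of their single falls.

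Ebf1 with both drugs lay close to its sum (-1.71 against -1.82), with an interaction of 0.11 (95% interval -0.33 to 0.54, limma adjusted p = 0.722). Spib stood at -2.16 against -1.76, and its interaction of -0.41 was not called (95% interval -0.81 to -0.00039, adjusted p = 0.123). Foxo1 stood at 0.50 against 0.33, with an interaction of 0.17 (95% interval -0.20 to 0.53, adjusted p = 0.487). For Pou2f2 the sum of its single differences would place it at a log2 level of 3.46 with both drugs, below 4.68, the lowest level of a detected probe on the mean of those arrays. A fall of that size could not have been measured, so its positive fitted interaction does not show that the response differed from the sum.

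**Figure D3:**
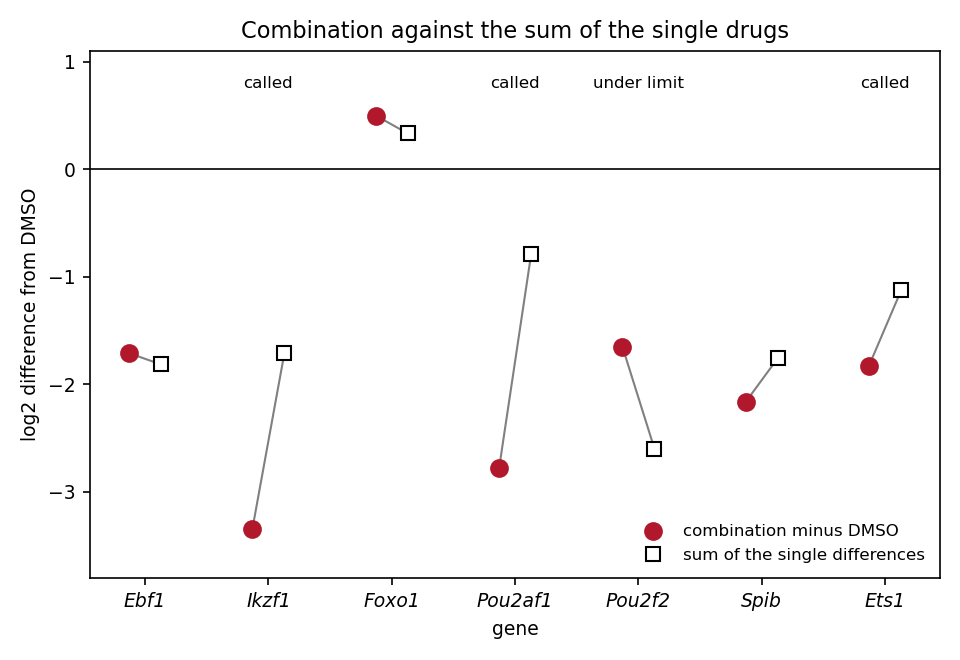
Log2 difference from DMSO with both drugs (filled circles) beside the sum of the differences with RVX2135 and with VE-821 (open squares) for each tested factor, marked "called" where the interaction passed limma's test and "under limit" where the sum lies below detection. Pou2af1, Ikzf1 and Ets1 lie below their sums, and Pou2f2 lies above a sum that is under the detection limit.

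Promoter windows of 8 of the 10 genes were found in the RefSeq table of the mouse build GRCm38.p6, 10 windows in all, each the 250 bases before an annotated start. They were searched on both strands for 8 motifs drawn up with the windows in view. Shown are the windows of Pou2af1 and Spib, which both fell with the combination and hold the octamer core, and of Pou2f2, the partner of Pou2af1. The windows of Ebf1 (the second of its windows) and of Foxo1, the factor that rose, are also shown. Capitals mark the matches, read 5′ to 3′ on the strand of the gene.
Pou2af1 (chr9:51213440-51213689, plus strand): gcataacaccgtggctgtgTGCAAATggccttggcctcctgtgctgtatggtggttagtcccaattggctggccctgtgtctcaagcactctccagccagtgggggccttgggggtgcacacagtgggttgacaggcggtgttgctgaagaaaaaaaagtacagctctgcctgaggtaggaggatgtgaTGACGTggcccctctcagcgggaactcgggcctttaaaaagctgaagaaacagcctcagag
Spib (chr7:44532072-44532321, minus strand): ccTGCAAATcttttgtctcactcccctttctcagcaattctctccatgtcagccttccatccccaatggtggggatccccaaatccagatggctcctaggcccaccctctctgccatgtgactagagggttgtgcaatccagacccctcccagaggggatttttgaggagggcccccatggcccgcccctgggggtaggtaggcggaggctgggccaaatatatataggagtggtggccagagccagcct
Pou2f2 (chr7:25132461-25132710, minus strand): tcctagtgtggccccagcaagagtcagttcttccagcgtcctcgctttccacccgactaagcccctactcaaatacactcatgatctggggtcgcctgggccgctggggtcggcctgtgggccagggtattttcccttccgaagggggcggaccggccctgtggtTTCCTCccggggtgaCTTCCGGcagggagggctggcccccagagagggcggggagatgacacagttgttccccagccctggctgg
Ebf1 (chr11:44619978-44620227, plus strand): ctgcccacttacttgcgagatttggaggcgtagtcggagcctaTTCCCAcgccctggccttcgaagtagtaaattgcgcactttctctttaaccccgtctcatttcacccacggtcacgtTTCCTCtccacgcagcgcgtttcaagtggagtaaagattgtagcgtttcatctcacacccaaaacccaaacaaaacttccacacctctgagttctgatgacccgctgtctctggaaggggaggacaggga
Foxo1 (chr3:52268087-52268336, plus strand): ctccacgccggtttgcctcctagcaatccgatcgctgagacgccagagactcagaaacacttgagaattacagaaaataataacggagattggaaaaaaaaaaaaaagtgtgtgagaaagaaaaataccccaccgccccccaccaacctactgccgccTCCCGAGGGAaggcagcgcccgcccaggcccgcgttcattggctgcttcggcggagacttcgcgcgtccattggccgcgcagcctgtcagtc
The octamer core TGCAAAT stands 231 bases before the Pou2af1 start and 248 bases before the Spib start, and 3.56% of all 32851 promoters hold it. The Pou2af1 window also holds the CRE core TGACGT, found in 6.47% of promoters, and neither window holds the full octamer ATGCAAAT, found in 1.6%. In the Pou2f2 window the PU box GAGGAA, found in 23.3% of promoters, and the ETS motif CCGGAAG, found in 6.91%, both occur on the opposite strand. The Ebf1 window holds the PU box and the Ikaros core TGGGAA, found in 21.6% of promoters, both on the opposite strand. The Foxo1 window holds the EBF motif, TCCC and GGGA with any 2 bases between them, found in 0.779% of promoters. The FOXO motif GTAAACA, found in 3.17% of promoters, occurs in none of the 10 windows, and no searched motif occurs in either Ikzf1 window, in the Pax5 window or in the first Ebf1 window. These matches describe the letters of the windows only.

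Genes that these factors are known to control were examined by group. Of 18 known direct targets of Pax5 or Ebf1, 8 were tested. With both drugs 7 of these fell and 1 rose (all genes: 30.8% lower, 28.9% higher), with RVX2135 5 fell (15.4% lower), and with VE-821 6 fell and 1 rose (11.7% lower, 12.1% higher). Their median differences were -2.39 with both drugs, -0.93 with RVX2135 and -1.05 with VE-821. Cd79b and Cd79a, the signalling chains of the B cell receptor, had log2 differences of -3.52 and -2.35 with both drugs (limma adjusted p = 2.01e-09 and 1.14e-08). Cd22, an inhibitory coreceptor, had a difference of -3.42 and Blnk, the adaptor downstream of the receptor, of -2.42 (adjusted p = 1.59e-08 and 1.90e-08). Vpreb3 was at least 21.3-fold lower with RVX2135, with differences of -3.87 with both drugs and -2.31 with VE-821 (adjusted p = 8.58e-09, 3.54e-09 and 1.11e-06). Cd40, the costimulatory receptor for T cell help, was the member that rose: it differed by 1.46 with both drugs, -0.97 with RVX2135 and 1.82 with VE-821 (adjusted p = 7.05e-07, 9.33e-05 and 7.39e-07).

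Of 16 known Foxo1 targets, 12 were tested, and they moved in both directions. Blnk was counted here as well as among the Pax5 or Ebf1 targets. With both drugs 5 rose and 6 fell (all genes: 28.9% higher, 30.8% lower), with RVX2135 7 rose and 3 fell (15% higher, 15.4% lower), and with VE-821 5 rose and 3 fell (12.1% higher, 11.7% lower). Gadd45a, a stress-induced growth arrest gene, was higher by 2.96 with both drugs, 2.00 with RVX2135 and 0.86 with VE-821 (limma adjusted p = 2.75e-08, 5.21e-06 and 0.00196). Pik3ip1, an inhibitor of PI3 kinase, was higher by 2.33 with both drugs, 2.46 with RVX2135 and 1.95 with VE-821 (adjusted p = 7.43e-07, 3.93e-06 and 1.70e-05). Klf2, a regulator of lymphocyte quiescence and migration, was lower by a difference of -2.50 with VE-821 (adjusted p = 4.06e-07). It was also called lower with both drugs (-1.28) and with RVX2135 (-0.71). Rag1, a subunit of the recombinase, was lower with both drugs (-1.35) and with VE-821 (-1.15; adjusted p = 4.87e-06 and 9.71e-05), and higher with RVX2135 (0.74, adjusted p = 0.00171).

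Of 8 targets of Oct-2, OBF-1, Spi-B or PU.1, 4 were tested: 3 fell with both drugs, 3 with RVX2135 and 1 with VE-821 (all genes: 30.8%, 15.4% and 11.7% lower), Cd22 being counted here as well as among the Pax5 or Ebf1 targets. Btk, the kinase of B cell receptor signalling, differed by -2.44 with both drugs and -0.97 with RVX2135 (limma adjusted p = 3.72e-08 and 0.000260), and by -0.13 with VE-821 (adjusted p = 0.508). Of 8 plasma cell factors or genes repressed by Pax5 or Bach2, 4 were tested: 2 fell and 2 rose with both drugs (all genes: 30.8% lower, 28.9% higher). Irf4, which drives plasma cell fate and partners ETS factors in B cells, fell by 2.23 with both drugs (adjusted p = 2.37e-08). Hmox1, the haem oxygenase gene that Bach proteins repress, was higher by 1.63 and Xbp1, the secretory programme factor, by 0.62 (adjusted p = 3.54e-07 and 0.000280).

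Among 34 other transcription factors of B cells and their progenitors, 24 were tested, with Irf4, Bcl6 and Id3 counted in the groups above as well. With both drugs 17 fell and 5 rose (all genes: 30.8% lower, 28.9% higher), with RVX2135 8 fell and 4 rose (15.4% lower, 15% higher), and with VE-821 10 fell and 4 rose (11.7% lower, 12.1% higher), and the median differences were -0.93 with both drugs, -0.18 with RVX2135 and -0.23 with VE-821. The 14 calls with VE-821 became 7 to 9 when either VE-821 array or either DMSO array was left out. Mef2c, a MADS box factor needed for B cell proliferation, had a difference of -1.78 with both drugs, and Cbfb, the partner of Runx proteins, one of -1.43 (limma adjusted p = 4.62e-08 and 1.46e-06). Bcl6, the repressor that governs germinal centre B cells, rose by 1.92 with both drugs, 0.79 with RVX2135 and 1.08 with VE-821 (adjusted p = 7.60e-08, 0.000392 and 4.15e-05). Mef2b, which activates Bcl6 in germinal centre cells, rose by 1.61 with both drugs and 2.07 with VE-821 (adjusted p = 2.63e-07 and 2.97e-07). By limma's test, 10 of the 24 had a negative interaction, where 15.5% of all genes did; Mef2b was among them, with a rise under both drugs that was smaller than the sum of its single differences.

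**Figure D4:**
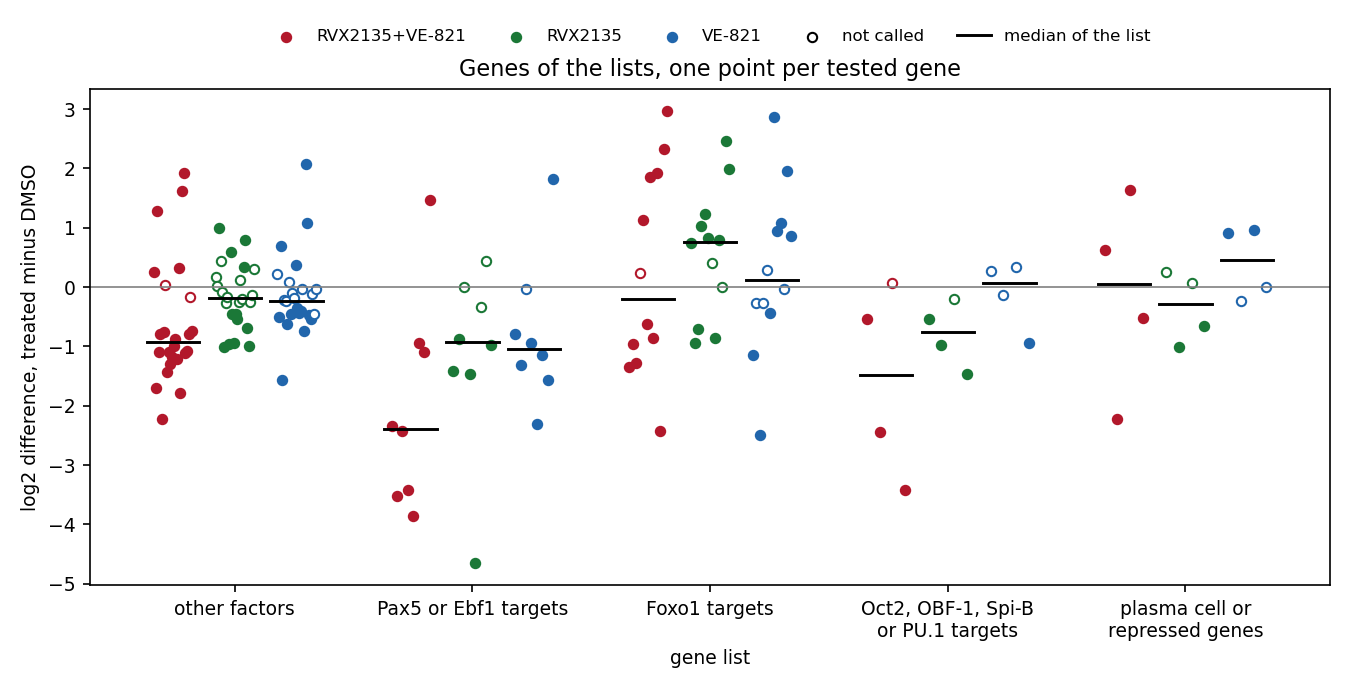
Log2 difference from DMSO of every tested gene of 5 gene groups with both drugs, RVX2135 or VE-821, with filled points for called genes and a line at the median. The targets of Pax5 or Ebf1 have the lowest median with both drugs (-2.39), and the Foxo1 targets spread to both sides of 0; the lowest RVX2135 point is Vpreb3, whose RVX2135 value is below background.

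For each factor the 3 genes with the nearest pattern over the groups were looked up, by the distance between the log2 means of the 4 groups after each gene was centred on its own mean. Mef2c lay nearest to Ets1 (distance 0.0995), followed by Man2a1 and Pitpna. St3gal6, Ccnd1 and Bhlha15 lay nearest to Pou2af1 (0.156 to 0.261), and Jakmip1, Lrmp and Cbr3 nearest to Ikzf1 (0.251 to 0.314). Tmem71, Btrc and Tmem131l lay nearest to Ebf1, Def6, Tspan32 and Napsa nearest to Spib, Ehd2, Ctsh and Kctd14 nearest to Pou2f2, and Zfp276, Cyhr1 and Gpr141b nearest to Foxo1.

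The label of the cells was set against marker genes. Of 10 B cell identity genes with a probe, 8 were detected on both DMSO arrays, including Cd79a, Cd79b, Cd22 and Blnk, while Ms4a1 and Vpreb1 were not detected. Their summed normalized intensity was 695 to 721 with both drugs, 2750 to 3050 with RVX2135, 2550 to 3090 with VE-821 and 5480 to 5730 with DMSO. All 8 tested ones fell with both drugs, where 30.8% of all genes were called lower. Of these, Cd79a, Cd79b, Cd22 and Blnk were also counted among the Pax5 or Ebf1 targets, and Blnk and Rag1 among the Foxo1 targets. In such bulk RNA, fewer cells that express a gene cannot be told apart from less of its RNA per cell. The summed level of 15 T and NK cell markers was 2390 to 3060 with both drugs, 585 to 590 with RVX2135, 597 to 656 with VE-821 and 429 to 436 with DMSO. Prf1, the pore-forming protein of cytotoxic cells, made up 97.7% to 98.1% of that sum with both drugs and 80.4% to 80.5% with DMSO. Prf1 was higher than with DMSO by 2.87 with both drugs, 0.55 with RVX2135 and 0.66 with VE-821 (limma adjusted p = 8.19e-09, 0.00664 and 0.00304). Cd3d, Cd3g and Klrb1c were detected on both arrays of DMSO and of no other group, so they were kept for testing only through DMSO. With both drugs, neither Cd3g nor Klrb1c was detected on either array. Klrb1c was called lower than with DMSO, by at least 1.19-fold (limma adjusted p = 0.00494). Cd3g was also called lower (adjusted p = 0.00883), but its bound of 1-fold gives no measurable size. Since Klrb1c and Cd3g were kept through the group where they were highest, these calls are not an independent test. Cd4, Cd8a, Zap70 and Bcl11b were not detected on any array. Of 12 myeloid markers, none was detected on both arrays of the combination or of DMSO, and the sums were 42.9 to 53.2 with both drugs, 51.3 to 56.2 with RVX2135, 98.4 to 119 with VE-821 and 57.2 to 60.8 with DMSO. Fcgr3 and Tyrobp were detected on both VE-821 arrays and rose there against DMSO by 1.20 and 0.62 on the log2 scale (limma adjusted p = 0.000177 and 0.00346). No other group had them on both arrays. They were kept for testing only through VE-821, where they were highest, so these rises are not an independent test. Stromal and endothelial markers summed to 51.3 to 61.6 with both drugs and 141 to 146 with DMSO, and erythroid markers to 39.1 to 45.3 with both drugs and 44.8 to 53.0 with DMSO. Of the stromal and endothelial markers, only Pecam1, Acta2 and Fbln1 were detected on both DMSO arrays. With both drugs they differed from DMSO by -1.77, -0.03 and -0.94. Col1a1, Col1a2, Col3a1, Pdgfra and Cdh5 were detected on no array. The part of these markers in the results was not tested.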

How the data were processed

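The deposited table held probe intensities before normalization, linear and background-subtracted (some are negative), with a detection p-value from the authors for each value. The submitters' processing notes name GenomeStudio. A second deposited table, normalized by a method not given in the sources used here, was an alternative. Symbols came from the platform annotation (23978 probes with 1 symbol, 0 with several, 1719 with none), and 23962 were updated by Entrez identifier.

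In limma 3.58.1 (R 4.3.3), neqc corrected the background, added an offset of 16, quantile-normalized and took log2. The offset shrinks the differences of dim probes. The 11761 probes kept (709 unnamed) had a detection p under 0.05 on each array of some group. The brightest probe stood for each of 2153 genes with several. Detection covered 42.9% to 44.7% of the probes on an array, and the number of arrays limits the precision. One model covered all 8 arrays (4 residual and 7.21 prior degrees of freedom), with 7 comparisons and two-sided tests. Where no array of a group detected a probe, its change is a bound, at least N-fold against the lowest detected signal. The fit was tested on simulated data.

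The members and the 10 gene lists were chosen with earlier results of these data known. Named were all members and, per list and comparison, some of up to 6 genes with the smallest adjusted p.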

Additional observations from a re-analysis of the deposited data

Results flagged for a closer look

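The response to one drug differed with the presence of the other for 3 factors, by limma's test of the interaction on the log2 scale. The interaction was -1.99 for Pou2af1 (adjusted p = 2.06e-05), -1.64 for Ikzf1 (adjusted p = 3.98e-05) and -0.70 for Ets1 by its brightest probe (adjusted p = 0.0120). Pou2f2 also passed the test, with a fitted interaction of 0.95 (adjusted p = 0.00523). Its sum of single differences lies at a log2 level of 3.46, under the lowest detected level of 4.68, so a level below background fixes the sign and no differing response is shown. Groups of 2 arrays are too small to look for a single outlying array.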

How the results depend on the processing

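Of 49 differences of single factors, 34 kept their direction and their side of the threshold under every alternative run, and of 917 alternative values 875 did so, 28 lost the call, 6 gained it and 8 changed sign. The 8 sign changes were all of uncalled values. Foxo1 with both drugs against RVX2135 gave -0.012 with median scaling, and the Ebf1 interaction gave -0.072 with an offset of 1. The others came from leaving out 1 array, over which Foxo1 with VE-821 against DMSO ranged from -0.13 to 0.017, Foxo1 with both drugs against RVX2135 from -0.036 to 0.26, Pou2f2 in that comparison from -0.36 to 0.031, Ikzf1 with RVX2135 against VE-821 from -0.048 to 0.16, and the Ebf1 interaction from -0.071 to 0.28. The cause was not tested. Of the counts of members, that of RVX2135 against VE-821, 4 of 7, moved to 2 with an offset of 1, an alternative chosen after seeing the data, and to between 1 and 4 when 1 array was left out. The fitted differences with both drugs against DMSO that the offset moved most were those of Ikzf1, Spib and Ebf1 (-2.59, -1.47 and -1.14 with an offset of 50, -3.94, -2.82 and -2.26 with an offset of 1) and Pou2f2, which has only a bound. The fitted Pou2f2 interaction lost its call with that offset (1.27, adjusted p = 0.113). The Ets1 difference with RVX2135 gained a call under 5 alternatives, among them median scaling (-0.49, adjusted p = 0.0212). For the 47 called differences from DMSO of genes named above from the 5 gene groups, 882 alternative values were run. Of these values, 869 kept their call and 13, all of Mef2b with RVX2135 or Cbfb with VE-821, lost it. Calls of list genes not named were followed only as counts per list. Of the list counts, the single call with VE-821 among Oct-2, OBF-1, Spi-B or PU.1 targets became 2 without VE-821 replicate 1.

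Median scaling, which aligned the arrays at the median of all probes, moved the median of all genes to -0.17 with both drugs, and to -0.10 with RVX2135 and -0.09 with VE-821, against DMSO. The share of lower genes among those called became 67.5%, 69.2% and 64.1% in these 3 comparisons, against 51.6%, 50.6% and 49.1% with quantile normalization, and 62.1% and 65.9% for both drugs against RVX2135 and against VE-821, compared with 51.5% and 50.8%. The falls of Ikzf1, Pou2af1, Spib, Ebf1, Ets1 and Pou2f2 with both drugs kept their calls there. With 1 array left out, genes called with RVX2135 against DMSO were as few as 1426 compared with 2420 on all arrays, with VE-821 931 compared with 1891, and with RVX2135 against VE-821 1359 compared with 2109.

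Same-numbered replicates deviated together weakly (correlations of -0.03 to 0.18), so the numbers are not shown to pair the samples. With the replicate number as a block, 5, 6 and 7 members were called against DMSO with RVX2135, VE-821 and both drugs, as without it, and genes called were 2481, 1976 and 4825. A chip block was not run, since the headers name no chip, and a fit of only the groups compared cannot be made for the interaction. Probes near background limit Pou2f2 and Pax5.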
